A study of Mus musculus with 11 samples.

Results

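By the rule used here, 445 intronic sites far from promoters held PU.1 reads above input in both MEL cells and ES-EP. These sites were selected on the reads themselves. The mouse genome (mm9) was divided into bins of 500 bp, and a bin was kept when it lay inside a protein-coding gene, outside its exons and more than 5 kb from any protein-coding transcription start site (TSS), held at least 20 pooled PU.1 reads in each cell type and held at least 4 times the depth-scaled input reads in each. Input counts below 3 reads were set to 3, and adjacent bins were joined. The number depends on these limits: with the floor of 3 applied after depth scaling 691 sites passed, and with at least 8 times the input 110 did. Of 1373809 intronic distal bins, 461 passed, and 429 of the 445 sites were a single bin while 16 were a pair of bins. In the whole series 8549 regions passed in at least 1 cell type, so the enrichment over input of the 445 sites is a description and not a finding.

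The ETS factor PU.1 binds purine-rich DNA around a GGAA core and is best known for its part in myeloid and B cell development. In erythroid cells it is present in immature progenitors and falls as they mature, and its continued expression blocks their differentiation. Binding sites within introns and away from promoters often lie in enhancers, which can act on the gene they lie in or on another gene nearby.

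MEL cells are a murine erythroleukemia line, here DS19 cells labelled as clone 4, that carries a stably transfected Gata-1 fused to ER and was kept under puromycin. ES-EP are untransformed erythroid progenitors derived from embryonic stem cells, which were grown with Epogen, murine SCF, hIGF-1 and dexamethasone. In each cell type 2 chromatin preparations went through immunoprecipitation with the anti-PU.1 antibody T-21. The letters A and B in the sample titles were taken here as these preparations, and the digits 1 and 2 after them as 2 libraries of each. The titles do not spell this out. MEL cells had 1 input library and ES-EP had 2. After 1 read was kept per position and strand, a library held from 1869760 to 4843483 reads, and n = 2 preparations per cell type in every test. Reads of a site are given for preparations A and B in this order, and levels as CPM, the reads per 1000000 reads kept. The ChIP libraries of MEL cells were 2.84 times as deep as the input and those of ES-EP 1.78 times, so with 3 or fewer input reads a site passed with 35 MEL reads and 22 ES-EP reads or more. Nothing in the labels says that A of MEL cells and A of ES-EP were made together. The p-values measure the spread between these preparations only. The test shared that spread over all regions, so they hold little of the spread of a single site.

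The 10 strongest sites, ranked by the lower of the CPM of MEL cells and of ES-EP, lay in or near genes of different kinds. They are shown as 140 bp of the mm9 plus strand around the summit, which is the middle of the densest stretch of reads. Capitals mark the word GAGGAAGT on either strand where the stretch holds it, otherwise its first 6 letters GAGGAA, and otherwise the GGAA nearest to the summit.
Gm20388, chr8:125394370-125394509: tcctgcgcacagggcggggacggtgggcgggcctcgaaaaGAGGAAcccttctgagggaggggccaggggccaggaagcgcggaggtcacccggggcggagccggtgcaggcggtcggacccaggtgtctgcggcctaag
Tmem56, chr3:120945998-120946137: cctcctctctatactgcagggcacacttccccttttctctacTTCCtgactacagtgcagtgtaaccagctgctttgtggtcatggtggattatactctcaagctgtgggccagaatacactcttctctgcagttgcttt
2310045N01Rik, chr8:72682566-72682705: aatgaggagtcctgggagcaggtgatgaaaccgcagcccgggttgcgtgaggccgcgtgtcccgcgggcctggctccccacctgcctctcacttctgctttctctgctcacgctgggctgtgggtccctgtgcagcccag
Adcy7, chr8:90824239-90824378: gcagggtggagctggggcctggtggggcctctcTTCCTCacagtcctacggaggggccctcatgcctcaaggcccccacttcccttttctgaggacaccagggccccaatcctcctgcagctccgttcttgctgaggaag
Mthfd1, chr12:77419981-77420120: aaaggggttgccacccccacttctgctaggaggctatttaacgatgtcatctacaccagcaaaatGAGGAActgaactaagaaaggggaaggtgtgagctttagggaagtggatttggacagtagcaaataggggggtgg
Ldlrad3, chr2:101877411-101877550: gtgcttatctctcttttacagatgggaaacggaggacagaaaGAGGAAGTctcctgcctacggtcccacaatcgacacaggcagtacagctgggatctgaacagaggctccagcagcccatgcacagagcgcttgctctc
Spef2, chr15:9644558-9644697: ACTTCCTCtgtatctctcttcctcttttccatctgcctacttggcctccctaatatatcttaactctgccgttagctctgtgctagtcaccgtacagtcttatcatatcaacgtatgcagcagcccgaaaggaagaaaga
Mob3a, chr10:80155246-80155385: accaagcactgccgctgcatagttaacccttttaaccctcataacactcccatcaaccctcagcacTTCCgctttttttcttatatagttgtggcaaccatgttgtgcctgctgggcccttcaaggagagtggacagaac
Nod2, chr8:91186330-91186469: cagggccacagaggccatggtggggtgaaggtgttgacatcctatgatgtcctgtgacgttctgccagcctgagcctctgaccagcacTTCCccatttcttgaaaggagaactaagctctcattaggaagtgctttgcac
Slc7a1, chr5:149191288-149191427: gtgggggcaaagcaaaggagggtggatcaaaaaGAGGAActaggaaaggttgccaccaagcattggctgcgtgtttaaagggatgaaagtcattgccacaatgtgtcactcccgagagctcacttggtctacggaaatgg
The longer word was printed for Ldlrad3 and Spef2 only, and the stretch from 2310045N01Rik held no GGAA. In 3 of the 10 the 200 bp around the summit had a GC content above 60%, against a median of 48.0% over the 445 sites.

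The strongest site lay in Gm20388, a gene model of 4434882 bp that spans many other genes, and its nearest protein-coding TSS was that of Cdh15, a muscle cadherin gene, at 22.6 kb. It held 88 and 174 reads in MEL against 295 and 201 in ES-EP, over 6 and 14 pooled input reads. Both ES-EP preparations were above both MEL preparations there after depth scaling (21.9 CPM in MEL against 39.4 CPM in ES-EP). In intron 3 of Tmem56, which encodes a transmembrane protein, the order of the pooled values was the opposite: 202 and 263 reads in MEL against 214 and 132 in ES-EP, or 38.9 and 27.5 CPM. This site also had the most MEL input reads of all members, 21. Intron 1 of 2310045N01Rik, which overlaps Mef2b, a gene of the MEF2 transcription factor family, held 67 and 149 reads in MEL against 291 and 228 in ES-EP. The site lay 5.96 kb from the TSS of Mef2b.

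Several of the strongest sites lay in genes of signalling and metabolism. Intron 3 of Adcy7, an adenylyl cyclase gene, held 48 and 150 reads in MEL against 176 and 113 in ES-EP. Intron 3 of Nod2, a cytosolic sensor of bacterial cell wall fragments, held 50 and 98 in MEL against 128 and 71 in ES-EP. Intron 1 of Slc7a1, which encodes a transporter of cationic amino acids, held 53 and 95 in MEL against 106 and 58 in ES-EP. In each of these 3 genes the preparations of the cell types overlapped in CPM, and MEL preparation B and ES-EP preparation A were the higher of their pair. The last intron of Mthfd1, an enzyme gene of folate metabolism, held 77 and 113 in MEL against 182 and 110 in ES-EP, and the nearest TSS was that of Akap5 at 5.83 kb. The site in Spef2, a gene of the sperm flagellum, was nearly level, with 74 and 81 reads in MEL against 109 and 58 in ES-EP (13.0 and 13.3 CPM). Intron 4 of Ldlrad3, a gene of the LDL receptor repeat family, held 94 and 123 in MEL against 187 and 129 in ES-EP, and intron 1 of Mob3a, a MOB family kinase regulator, held 58 and 90 against 139 and 88. No input exceeded 8 reads at Mob3a, Nod2, Slc7a1 and Spef2 in either cell type.

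**Figure D1:**
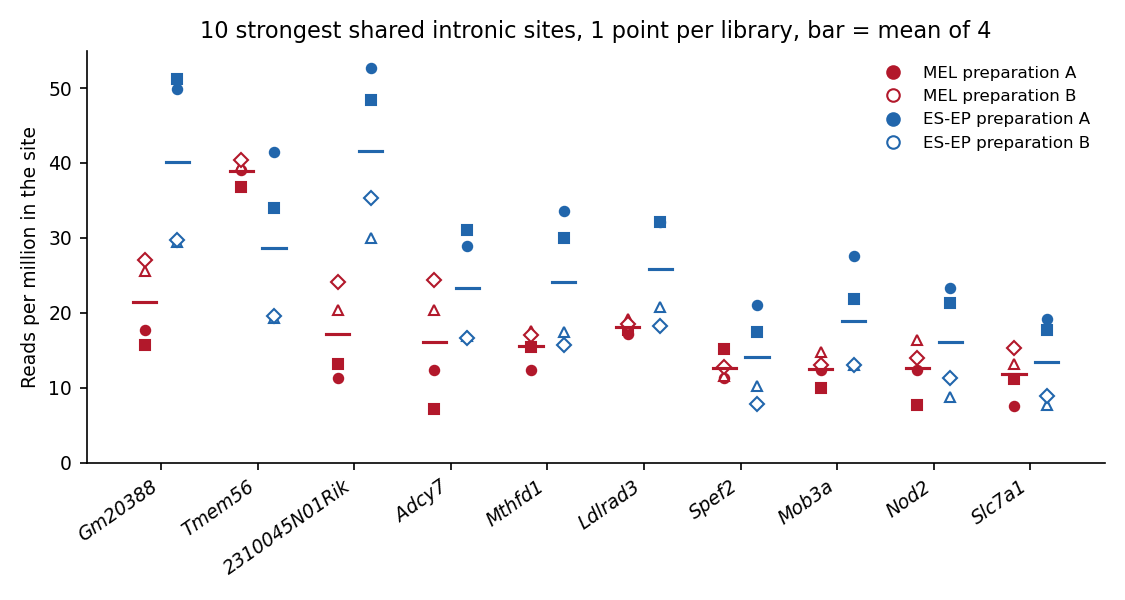
CPM (y axis) in the 10 strongest shared intronic sites (x axis, by host gene), with 1 point per library, MEL cells in red and ES-EP in blue, filled for preparation A and open for B, and a bar at the mean of the 4 libraries. The ES-EP libraries of preparation A lie above those of B in all 10, and only the strongest site and that of 2310045N01Rik have every ES-EP library above every MEL library.

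Across all 445 sites the pooled reads had a median of 59 in MEL cells (35 to 465) and 62 in ES-EP (22 to 519), over median inputs of 2 and 3 reads. The ratio to depth-scaled input had a median of 6.35 in MEL cells and 9.57 in ES-EP. These values follow from the selection, so the sites were also chosen on 1 preparation of each cell type and read in the other. Of 479 sites chosen on the A preparations, 84.8% were at least 4-fold over input in MEL preparation B and 70.4% in ES-EP preparation B, with medians of 32 and 20 reads. Of 378 chosen on the B preparations, 80.4% were at least 4-fold over input in MEL preparation A and 98.9% in ES-EP preparation A, with medians of 26 and 44 reads. The median over all intronic distal bins was 1 read in each of these preparations. All these ratios used the same input libraries, so an input that is low by chance would raise both.

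The preparations differed most in ES-EP. Preparation A was above B in 437 of the 445 sites after depth scaling. The median difference in log2 (CPM + 0.5) was 0.89, a ratio of 1.85, whereas in MEL cells A was above B in 170. The sites together held 4031 and 3698 CPM in the ES-EP A libraries and 1922 and 1983 CPM in the B libraries. They held 2489 to 2824 CPM in the MEL libraries and 162 to 235 CPM in the 3 inputs. As a description over the 445 sites, which share libraries, log2 (CPM + 0.5) correlated with Pearson's r = 0.91 between the ES-EP preparations and 0.77 between the MEL preparations, and with 0.48 to 0.51 between cell types. The sites kept without ES-EP preparation A numbered 356 and without ES-EP preparation B 496.

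**Figure D2:**
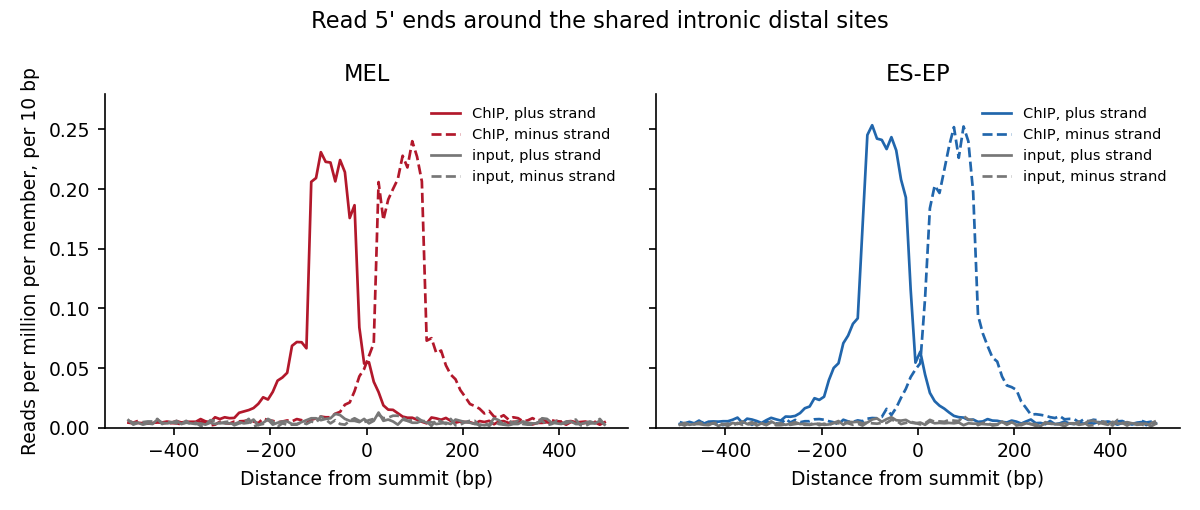
Unshifted read 5′ ends per member (CPM) in steps of 10 bp (y axis) against the distance from the summit (x axis) for MEL cells (left) and ES-EP (right), plus strand solid, minus strand dashed, input in grey. Plus-strand ends lie before the summit and minus-strand ends after it in both cell types, and input stays below the ChIP throughout the peaks (highest input value 0.0128); the steep flanks follow in part from how the summit was placed.

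MEL cells and ES-EP placed their summits at nearly the same base. The summits found separately in each cell type lay a median of 8 bp apart (quartiles 4 and 18 bp), within 50 bp in 434 of 445 sites, and over 200 bp apart in 2. The summits of Spef2, Prkce, the stronger Baz2b site and the stronger Nfatc1 site were at the same base in both cell types. The rule fixed only the bin, so that much larger distances were possible. No test was run on these distances.

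The word GAGGAAGT, the binding sequence most often described for PU.1, was present in the 200 bp around the summit in 221 of the 445 sites (49.7%, 95% exact binomial interval 44.9 to 54.4%). The same word was in 1.16% of the middle 200 bp of 1367541 intronic distal bins. Words of 8 letters were also ranked with their reverse complements against every 60th intronic distal bin, leaving out words that few sites held. Among those ranked it was the most over-represented, followed by GGAAGTGC in 15.1% and AGGAAGTG in 42.5% of sites. The shorter core GAGGAA, which is part of the word, was in 71.5% of sites and 17.7% of bins. GGGGAAGT, a variant noticed after the word counts were seen, was in 12.4%, and with GAGGAAGT together in 60.9%. The core, and with it the word GAGGAAGT, was absent from 127 sites.

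Where the word was present it lay close to the summit. The distance had a median of 16.5 bp, and 126 of 221 words (57.0%) lay within 20 bp. It read along the host gene in 115 of the 221 sites, and 18 sites held more than 1. The strength of the sites did not follow the word: the median was 3.85 CPM with it and 3.87 without it. Among the 50 strongest 56.0% held the word, and among ranks 301 to 445 53.1% did. Sites rich in CpG were few. Only 9 had 10 or more CpG in 200 bp, 7 of them among the 150 strongest, and 1 of the 9 held the word.

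**Figure D3:**
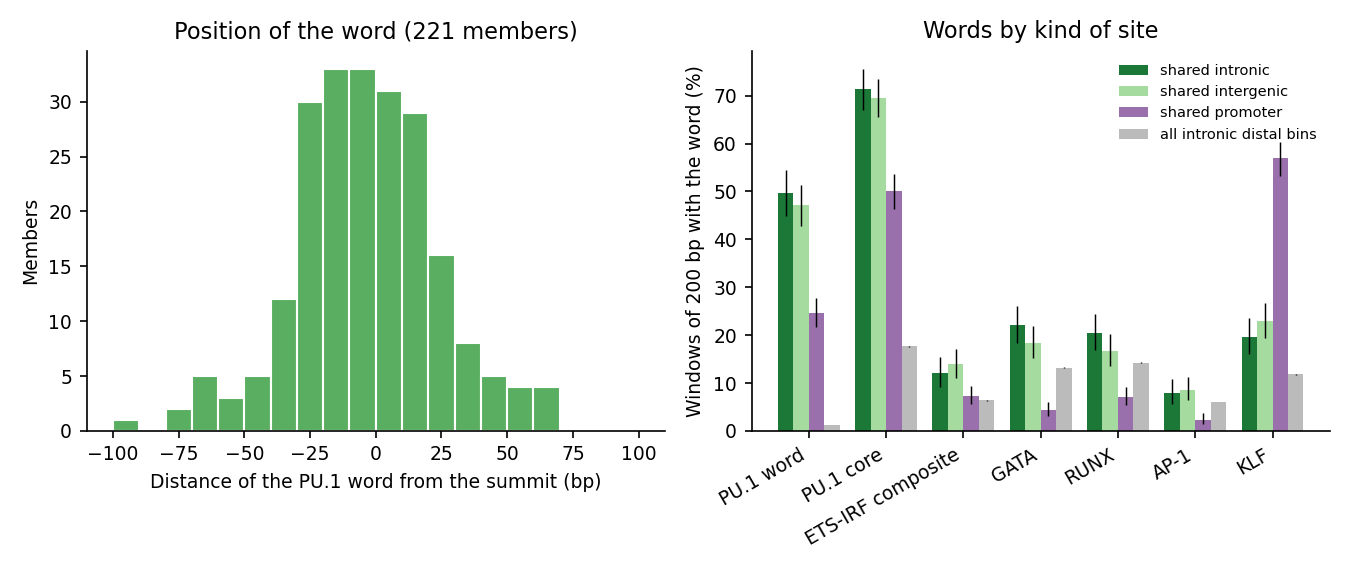
Left, number of members (y axis) by the distance in bp of the word GAGGAAGT from the summit (x axis). Right, share of 200 bp windows with each word (y axis, bars with 95% exact binomial intervals) in shared intronic, shared intergenic and shared promoter sites and in all intronic distal bins; the word and its core are more frequent in both kinds of distal sites than in promoters, and the KLF word is the reverse.

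Words of other factor families were searched on both strands with the spelling given here, and a match is a description of the letters only. AGATAA, the GATA word, was in 22.0% of sites (18.3 to 26.2%) and 13.2% of all intronic distal bins. TGTGGT, the RUNX word, was in 20.4% (16.8 to 24.5%) and 14.3%. GGAANNGAA, an ETS-IRF composite that overlaps the PU.1 core, was in 12.1% and 6.35%, and CCNCNCCC, the KLF word, was in 19.6% and 11.8%. TGANTCA, the AP-1 word, was in 7.87% (5.54 to 10.8%) and 6.03%, and its interval includes the level of the bins. CCGGAAGT, a word of other ETS factors, and GGCGGGAA, an E2F word, were in 0 of 445 sites, which allows a share of up to 0.674% by a floor of 3 counts and 0.826% by the exact interval, while 0.105% and 0.124% of bins held them. The GC content of the sites was higher than that of the bins (medians 48.0 and 42.0%), and the part of base composition in these shares was not tested.

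The shared intronic sites resembled shared intergenic sites and differed from shared promoters in sequence. Shared intergenic distal sites, 533 in number, held GAGGAAGT in 47.1% (42.8 to 51.4%) and AGATAA in 18.4% (15.2 to 21.9%), and both intervals overlap those of the intronic sites. The 768 shared promoter sites held GAGGAAGT in 24.6% (21.6 to 27.8%), AGATAA in 4.43% (3.09 to 6.13%) and CCNCNCCC in 56.9% (53.3 to 60.4%), which do not overlap them. CCGGAAGT was in 6.25% of promoter sites. The promoters also had a median GC content of 67.0%. Per 100000 bins, 33.6 intronic distal bins were shared, against 17.96 intergenic distal and 659 promoter bins.

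The 445 sites lay in 410 host genes, counting overlapping genes each, of 13050 protein-coding genes that have at least 1 intronic distal bin (3.14%). Long genes have more bins, and with the genes divided into 4 equal groups by this number, the share rose from 0.245% in the shortest group to 8.31% in the longest. The sites lay more often in early introns: 30.3% were in the first intron and 19.8% in intron 2, against 24.4 and 16.6% of every 400th intronic distal bin. The median distance from the host's 5′ end was 45111 bp against 82772 bp for these bins. Their hosts were shorter (median 122535 against 210232 bp), and what part of these differences comes from gene length was not tested. The median distance to the nearest protein-coding TSS was 18613 bp, and 31 sites were within 5 kb of the TSS of a noncoding gene, which the rule did not bar.

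Most hosts, 371, had 1 site, 36 had 2, and 3 genes had more. Gm20388 had 6 and Fgfr2, a growth factor receptor gene whose longest model covers 3009069 bp, had 4. In both, other genes lay closer. The Gm20388 sites included introns of Def8 and Sult5a1 and a site 5.85 kb from the TSS of Abcb10, a mitochondrial transporter gene of heme-forming cells, and those of Fgfr2 included an intron of Fam53b and a site 6.36 kb from the TSS of Chst15. The other 435 sites had neither gene as a host, and the sites in introns of Def8, Sult5a1 and Fam53b would lie in a host gene without these long models too.

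Prkcq, which encodes protein kinase C theta, had 3 sites in its first intron, all with more CPM in ES-EP. The strongest held 68 and 91 reads in MEL against 207 and 123 in ES-EP. The second held 23 and 23 against 61 and 31, and the third held 20 and 24 against 51 and 42. The adjusted p of the 3 was 0.44 to 0.52 (limma). None of the 3 held GAGGAAGT. The last intron of 2510003E04Rik held a pair of sites, 14.3 and 16.3 kb from the TSS of Srgn, the gene of the granule proteoglycan serglycin. The stronger held 73 and 94 reads in MEL against 62 and 34 in ES-EP, and the weaker 21 and 34 against 51 and 21. The pooled CPM of the pair thus had opposite orders within 1 intron, and neither difference passed the test. At the weaker site ES-EP preparation B was below both MEL preparations in CPM, so its order came from ES-EP preparation A.

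A minority of host genes also had a promoter that passed the same limits. In 37 of the 410 hosts (9.02%) a bin within 500 bp of a TSS passed in both cell types, and in 108 (26.3%) in at least 1. Among the 12640 eligible genes without a site the shares were 4.87 and 17.4%. The other 373 hosts thus had a shared intronic site and no promoter that passed in both. A promoter that missed these limits may still hold PU.1. Of the promoter bins 808 passed in both cell types, 1832 in MEL cells only and 844 in ES-EP only. Shared promoter sites had a median of 10 ES-EP input reads, against 3 at the intronic sites, so that 4 times the input asked for more reads there. The part of this in the 373 was not tested.

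The hosts included regulators of blood cell fate. The gene lists used here and below were chosen with earlier results of these data known, so shares of hosts in them are a description. Of 47 eligible blood transcription factor genes 9 were hosts (19.1%): Bach2, Foxp1, Ikzf1, Irf2, Meis1, Nfatc1, Runx1, Tcf4 and Zeb2. All 9 were among the 25 of the list that belong to the longest group of genes (36.0%, beside 8.31% of all genes in that group). Gata1, Gata2, Tal1, Lmo2, Klf1, Gfi1b, Myb, Fli1 and Sfpi1 were also on the list and were not hosts, though some of them may not have been eligible. Nfatc1, a transcription factor activated by calcineurin, had a pair of sites in intron 2, with 45 and 49 reads in MEL against 67 and 42 in ES-EP in the stronger and 30 and 56 against 83 and 49 in the other. Ikzf1, the gene of the lymphoid regulator Ikaros, had a site in intron 3 with 50 and 83 against 134 and 87 reads and a site in intron 7 with 25 and 22 against 27 and 19. At the stronger Ikzf1 site both MEL preparations were below both of ES-EP in CPM, MEL B and ES-EP B by little (adjusted p = 0.63, limma).

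Meis1, a homeobox gene of stem and progenitor cells, had a site in intron 8 with 31 and 45 reads in MEL against 87 and 42 in ES-EP and another in intron 7 with 49 and 60 against 27 and 17. The first had its higher pooled value in ES-EP (10.2 against 6.36 CPM), and the second in MEL cells (9.13 against 3.49). Neither passed the test (adjusted p = 0.65 and 0.25, limma). Foxp1, a forkhead factor gene, held 24 and 42 reads in MEL against 65 and 34 in ES-EP in intron 3.

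Sites of 3 blood cell genes, chosen for display after their values were seen, are printed as 100 bp of the plus strand around the summit with the same use of capitals.
Ikzf1, chr11:11611976-11612075: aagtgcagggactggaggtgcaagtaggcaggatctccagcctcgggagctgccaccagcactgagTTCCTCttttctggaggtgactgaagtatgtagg
Meis1, chr11:18825049-18825148: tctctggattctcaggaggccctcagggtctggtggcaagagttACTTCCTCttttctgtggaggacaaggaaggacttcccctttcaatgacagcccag
Inpp5d, chr1:89534914-89535013: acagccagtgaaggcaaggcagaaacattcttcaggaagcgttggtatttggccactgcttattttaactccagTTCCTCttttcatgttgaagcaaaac
The Meis1 stretch held the full word and those of Ikzf1 and Inpp5d the core.

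Hosts were as frequent among genes of the PI3K-Akt pathway, which carries survival signals from growth factor receptors. Of 38 eligible genes 7 were hosts (18.4%): Dapp1, Foxo3, Gab2, Inpp5d, Prkce, Sgk1 and Sgk3. Of the 22 in the longest group 6 were hosts (27.3%). Inpp5d, which encodes the lipid phosphatase SHIP1, had a pair of sites in intron 2, with 24 and 38 reads in MEL against 44 and 35 in ES-EP and with 13 and 33 against 37 and 25. Dapp1, a phosphoinositide-binding adaptor gene, held 40 and 46 against 56 and 43, and Gab2, an adaptor of cytokine receptors, held 25 and 34 against 57 and 18. Prkce, the gene of protein kinase C epsilon, held 74 and 67 against 48 and 34, with both MEL preparations above both of ES-EP after scaling; its adjusted p was 0.51 (limma).

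Other lists held few or no hosts. In the Ras-ERK cascade 2 of 31 eligible genes were hosts (6.45%), Rasa3 and Grb2. Of corepressors and chromatin enzymes 2 of 41 were (4.88%), Kdm4c, a histone demethylase gene with 44 and 60 reads in MEL against 101 and 45 in ES-EP, and Mta3, a subunit of the NuRD complex, with 19 and 38 against 44 and 34. Of myeloid and B cell surface and signalling genes 1 of 41 was (2.44%), Irak3, an inhibitor of Toll-like receptor signalling, with 38 and 47 against 50 and 31. None of 38 eligible cytokine receptor and JAK-STAT genes, 32 red cell membrane, iron and heme genes and 27 cell cycle and survival genes was a host, and of these 8, 5 and 8 belong to the longest group. The lists differ in gene length, with a median of 25.5 intronic distal bins in the cytokine list and 122.5 in the PI3K-Akt list, and no test compared them.

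**Figure D4:**
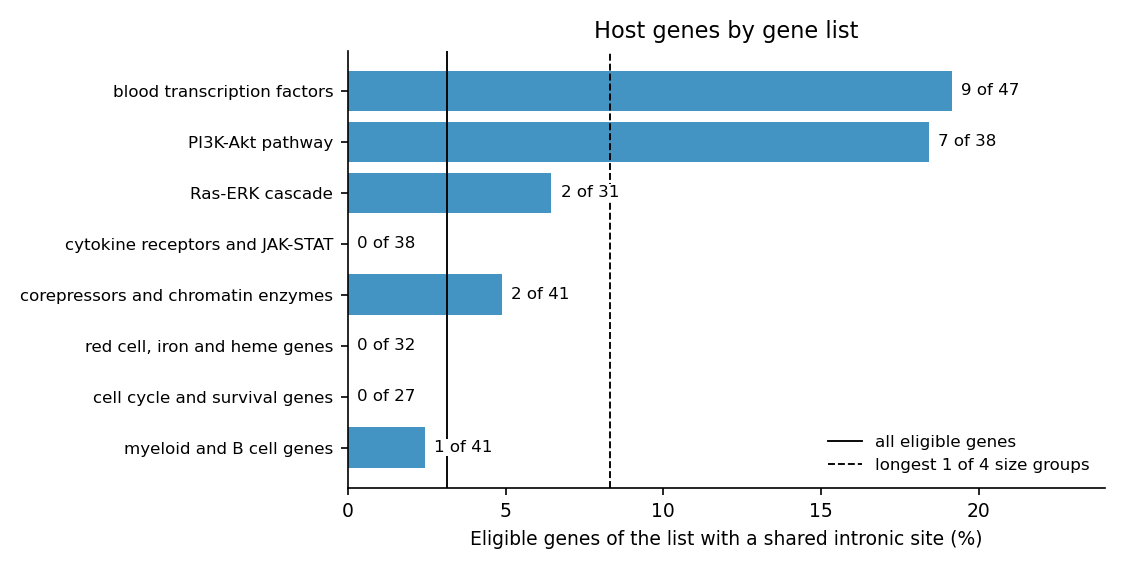
Share of the eligible genes of each list (y axis) that hold a shared intronic site (x axis, %), with the number of hosts and of eligible genes beside each bar, the share over all eligible genes as a solid line and that over the longest group as a dashed line. Blood transcription factors and PI3K-Akt genes lie past both lines, and 3 lists are at 0. The lists were chosen with earlier results of these data known, so the shares are a description.

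Most of the sites had like numbers of reads in MEL cells and ES-EP. The rule required reads in both, which limits the ratios, so this is a description. The ratio was within 2-fold in 351 of 445 (78.9%), more than 4-fold in favor of MEL cells in 5 and of ES-EP in 0, and the median log2 ratio was 0.01 (-1.83 to 2.78). Since a site needed more reads in MEL cells than in ES-EP to pass, the selection leaves less room for ratios in favor of ES-EP. By limma over 8549 regions, 5 sites were higher in MEL cells (1.12%, against 2.66% of all regions) and 0 in ES-EP (against 1.93% of all regions) at an adjusted p below 0.05. Of the 8549 regions, 2666 passed in MEL cells only and 3701 in ES-EP only, while the sites had to pass in both. The shares of the sites and of all regions, here and below, are therefore not like for like. At an unadjusted p below 0.05 (limma) 34 sites were higher in MEL cells (7.64%, against 8.94% of all regions) and 9 in ES-EP (2.02%, against 9.38% of all regions). MEL cells were above ES-EP in all 4 pairs of preparations in 106 sites (23.8%, against 15.2% of all regions), and ES-EP above MEL cells in 81 (18.2%, against 29.9% of all regions).

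These calls depended on how depth was scaled. The median log2 difference of all regions was -0.43 with total reads, and with scaling by the median ratio over regions it was -0.05. Scaled in that way, 107 sites were called for MEL and 15 for ES-EP, beside 1356 and 617 of all 8549 regions, and the fitted median of the sites moved from 0.03 to 0.41. With limma on log2 (CPM + 0.5) 2 sites were called for MEL and 0 for ES-EP, beside 304 and 202 of all regions. The SE of a log2 difference was 0.63 to 0.71, so a site that was not called may still differ: the smallest difference called was 2.14, and the largest not called was 1.73.

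The 5 sites higher in MEL cells are printed as 140 bp of the plus strand around the summit, marked as before.
2610019F03Rik, chr8:13964594-13964733: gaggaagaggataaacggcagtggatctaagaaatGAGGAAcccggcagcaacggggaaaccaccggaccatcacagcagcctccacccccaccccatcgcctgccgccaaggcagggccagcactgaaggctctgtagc
Prkag2, chr5:24547830-24547969: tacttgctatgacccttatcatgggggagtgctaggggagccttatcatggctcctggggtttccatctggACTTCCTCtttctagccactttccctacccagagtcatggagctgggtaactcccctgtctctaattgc
Gm20388, chr8:122856712-122856851: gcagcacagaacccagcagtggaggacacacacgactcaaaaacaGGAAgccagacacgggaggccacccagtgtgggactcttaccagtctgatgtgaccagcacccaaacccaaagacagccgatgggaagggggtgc
Ankrd55, chr13:113145301-113145440: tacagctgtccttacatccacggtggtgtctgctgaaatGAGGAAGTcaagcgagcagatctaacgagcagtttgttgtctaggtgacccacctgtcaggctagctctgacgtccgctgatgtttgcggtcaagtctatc
Nav1, chr1:137530230-137530369: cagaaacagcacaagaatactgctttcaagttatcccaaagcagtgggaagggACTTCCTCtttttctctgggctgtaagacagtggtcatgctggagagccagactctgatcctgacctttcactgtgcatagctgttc
The stretches from Prkag2, Ankrd55 and Nav1 held the full word, that from 2610019F03Rik the core, and that from Gm20388 neither.

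The site with the highest difference lay in intron 1 of 2610019F03Rik, with 46 and 110 reads in MEL against 11 and 13 in ES-EP over 3 input reads in each (log2 difference 2.60 ± 0.68 SE, adjusted p = 0.0103, limma, higher in 4 of 4 pairs). Every MEL preparation was above every ES-EP preparation at this and the other 4 sites. In intron 1 of Prkag2, a regulatory subunit of AMP-activated protein kinase, both MEL preparations, with 60 and 79 reads, were above the 17 and 9 of ES-EP (2.53, adjusted p = 0.0124, limma). The called site in Gm20388, 155 kb from the nearest protein-coding TSS, held 46 and 75 against 21 and 8 reads (2.23, adjusted p = 0.0289, limma).

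Intron 6 of Ankrd55, which encodes a protein of ankyrin repeats, held 44 and 57 reads in MEL against 13 and 10 in ES-EP (2.18, adjusted p = 0.0376, limma). Nav1, a gene of a microtubule-associated protein of neurons, held 62 and 59 against 20 and 10 (2.14, adjusted p = 0.0380, limma). All 5 sites had low reads in ES-EP and ranked 387 or lower of the 445 in strength, and their differences stayed at 2.16 to 2.59 when the preparation letter was a block (adjusted p = 0.0666 to 0.147, limma) and when only regions that passed in both cell types were fitted (adjusted p = 0.0604 to 0.180, limma). The calls were lost with any 1 preparation left out, where 1 cell type keeps a single preparation. Without MEL preparation A the differences were 1.97 to 3.08, and without MEL preparation B they were 2.02 to 2.47. Without ES-EP preparation B the differences were 1.43 to 2.59, and without ES-EP preparation A they were 2.46 to 3.06.

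**Figure D5:**
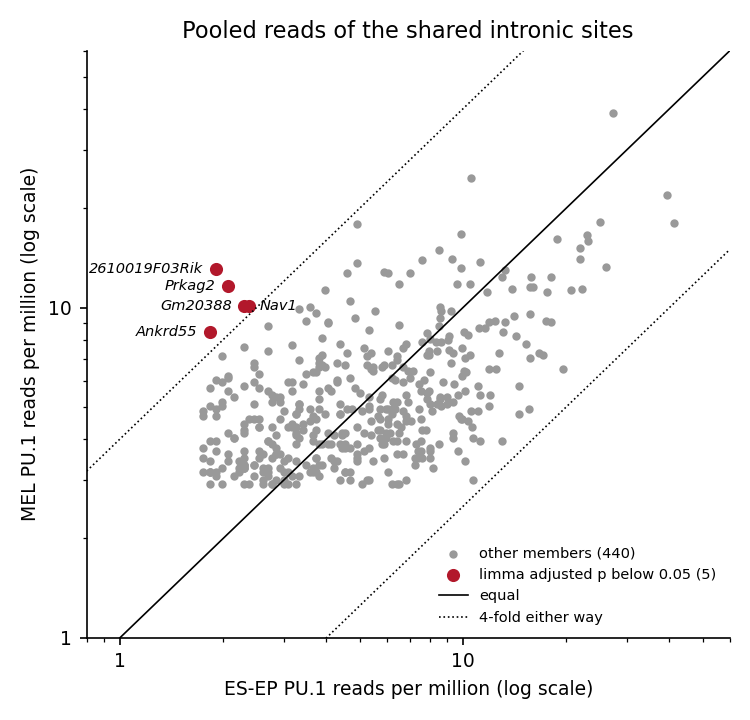
Pooled PU.1 CPM of MEL cells (y axis, log scale) against ES-EP (x axis, log scale), 1 point per site, the 5 sites called by limma in red, with lines at equal values and at 4-fold either way. The points end at a floor that is higher in MEL cells (2.93 CPM) than in ES-EP (1.75), and the 5 called sites lie past the 4-fold line on the MEL side.

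Input reads per chromosome differed between the cell types. The ratio of MEL to ES-EP input reads, relative to the median autosome, was 1.32 on chromosome 3, 1.31 on chromosome 15 and 1.55 on chromosome X, and 0.725 on chromosome 8. The 19 sites of chromosome 15 had a median log2 ratio of 0.90, the highest of any chromosome, the 20 of chromosome 3 had 0.43, the 11 of chromosome X -0.09 and the 24 of chromosome 8 -0.21. Of the 5 called sites the pair in 2610019F03Rik and Gm20388 lay on chromosome 8, and none on 3, 15 or X. Without these 4 chromosomes the median log2 ratio of the sites was -0.02, and the part of the input ratios in single sites was not tested.

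Sites near the limits of the rule had values that a few reads would have moved across. Just inside were sites of Slc9a7 (57 MEL reads over 5 input reads), Inpp5d (46 over 4) and Orai1 (46 over 4). Just outside were bins in 6330403A02Rik, Dtd1 and Mrpl1, each with 34 MEL reads, and with 47, 24 and 47 reads in ES-EP.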

How the data were processed

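PU.1 ChIP-Seq and input DNA of MEL cells and ES-EP were analysed. Reads came from an Illumina GAII, and the authors aligned them to mm9 with ELAND (version not given in the sources used here) and kept unique alignments with up to 2 mismatches. Each line of the deposited files is an aligned read without any measured value, and all counts were made here from the positions. Peaks of the authors were not used here.

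Read 5′ ends were shifted by 70 bp (MEL cells) or 65 bp (ES-EP), with 1 read kept per position and strand in each library, and the libraries of a preparation were summed. Genes came from GENCODE vM1 on NCBIM37 (22367 protein-coding genes, 78248 transcripts). Summits were the middle of the densest stretch of 50 bp to either side in the pooled ChIP reads. CPM used the reads kept. The cell types were compared with limma 3.58.1 (voom, two-sided moderated test, Benjamini-Hochberg adjustment over 8549 regions, no filter). The code was also run on simulated reads. These had no shift between preparations like that of ES-EP A and B, so that run cannot show how the test behaves on these data. Deviations from the group means correlated between MEL A and ES-EP A with r = 0.04 over all regions and 0.13 over the members, and A and B were not taken as pairs, since no label pairs them. Overlapping hosts were all counted.

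Genes named are hosts of the 10 strongest sites (at most 1 per gene), of the most sites (36 genes tied at 2, of which 2510003E04Rik and Baz2b come first by name), of called sites and, per list, up to 4 by strength, besides the sites nearest to the limits. The fifth called site was added because the calls were so few. A further gene list is not reported here. The members and gene lists were chosen with earlier results of these data known. Intervals cover counting error only. The alternatives are given in the closing section.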

Additional observations from a re-analysis of the deposited data

Results flagged for a closer look

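In each group of 4 libraries the highest or lowest value was compared with the others by Dixon's ratio (95% critical value), over the reads in all members and the strongest and called sites. Chance alone flags about 1 in 20 groups, and the libraries of a preparation are not independent. At the Nav1 site ES-EP library A2 had 4.35 CPM, and the other 3 ES-EP libraries had 1.45 to 1.87. At the Ankrd55 site the same library had 2.72, and the others had 1.40 to 1.49. At the called Gm20388 site MEL library B1 had 14.8 CPM, and the other MEL libraries had 8.56 to 9.34. These values rest on 16, 10 and 37 reads.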

How the results depend on the processing

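The number of shared intronic sites was 445 and became 691 when the floor of 3 input reads was applied after depth scaling and 110 with at least 8 times the input. Leaving out 1 preparation gave 356 to 496, and the other alternatives gave 303 to 484, among them 473 with the TSSs of protein-coding transcripts only, which was chosen after seeing the data, as were the omission of all sites in Gm20388 and Fgfr2 (435 left), the word GGGGAAGT and the omission of chromosomes. The sites higher in MEL cells, 5, became 2 with log2 (CPM + 0.5), 33 with each library as a sample, 107 with median-ratio scaling, 0 when only regions that passed in both cell types were fitted, and 0 to 0 when 1 preparation was left out, where the lone preparation is assumed to vary like the others. With the preparation letter as a replicate block 0 sites were called for MEL and 0 for ES-EP, beside 122 and 112 of all 8549 regions. At an unadjusted p below 0.05 the block gave 15 and 0 sites, and the letters share only a name. The sites higher in ES-EP, 0, became 20 with each library as a sample and 15 with median-ratio scaling. The median log2 ratio was 0.01, from -0.41 to 0.58 when 1 preparation was left out, and 0.45 with median-ratio scaling. The share with GAGGAAGT, 49.7%, was 45.4% in 100 bp, 51.0% in 500 bp, 71.5% for GAGGAA and 60.9% with GGGGAAGT added. The 5 called sites kept their direction in each of the 10 alternatives. Their causes were not tested. Over all 8549 regions the fits called 227 for MEL and 165 for ES-EP at first, 1356 and 617 with median-ratio scaling and 730 and 826 with each library as a sample.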
